A study of Mus musculus with 51 samples.

Results

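*Smchd1* wt mouse embryonic stem cells (mESCs) were compared between day 1 and day 2 of differentiation towards neuromesodermal progenitors (NMPs), the bipotent progenitors that give rise to spinal cord and paraxial mesoderm. The comparison used every wild-type library labelled day 1 (3 libraries) or day 2 (4 libraries), 7 of the 51 samples of the series. Both groups were male C57BL/6/Cast F1 cells of genotype Smchd1[fl/+], which carry a floxed maternal allele and no deletion. The culture medium of the lines, used in falling shares before day 0, held the Wnt activator CHIR99021. From day 0 the cells received basic FGF without CHIR99021, which was added again from day 2. This step therefore took place under FGF, after CHIR99021 had been withdrawn. Replicates 1 and 2 of both days and replicate 3 of day 2 came from line 1 of the labels, and replicate 4 of both days came from line 2. Cells for days 0 and 1 were seeded more densely than those for later days, and density and time cannot be told apart here. The study calls the libraries technical replicates of lines from separate blastocysts, split evenly between lines. The labels place 3 day 2 libraries in line 1 and 1 in line 2. P-values measure the spread between these libraries, which is in part technical.

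In mESCs a core circuit of *Pou5f1*, *Sox2* and *Nanog* holds the cells pluripotent. Another group of factors, among them *Klf4*, *Esrrb*, *Tbx3*, *Nr0b1* and *Zfp42*, marks the naive state of the preimplantation epiblast and is lost as cells move towards the state of the postimplantation epiblast, a transition that FGF signalling drives. Wnt activity then induces the primitive streak gene *T* (listed as *Tbra*), the *Cdx* genes and *Nkx1-2*, which mark the caudal epiblast, and *Hox* genes follow in the order of their position in the 4 clusters.

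Expression was deposited as log2 RPKM (reads per kilobase of transcript and per 1000000 mapped reads) for 34 pluripotency and differentiation factors and, in a separate table, for 39 *Hox* genes. The implied depth of the libraries, on the scale set by GENCODE exon lengths, was 11.1, 4.81 and 3.81 M reads (M for 1000000) at day 1 (replicates 1, 2 and 4) and 30.7, 13.8, 13.4 and 2.69 M reads at day 2 (replicates 1, 2, 3 and 4). Replicate 3 of day 2 stood apart in the factor table: it was the lowest of the 4 day 2 libraries for 24 of 34 factors, and *Ctnnb1* (beta-catenin, expressed in all cells) was at 4.63 log2 RPKM against 6.98, 7.48 and 6.29 in replicates 1, 2 and 4. Differences are day 2 minus day 1 throughout, tested with limma and Benjamini-Hochberg adjustment over the whole table. A fit with the replicate number as a block was added because same-numbered libraries deviated together. It compares day 1 and day 2 within replicates 1, 2 and 4, and replicate 3 of day 2, which has no partner, does not enter its difference.

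All 18 factors of the table listed as pluripotency factors had a lower mean at day 2 than at day 1. Their median difference was -1.15, beside -0.69 over all 34 factors. *Gbx2*, which rose, was listed as neural and is not among the 18. With the replicate block, which leaves replicate 3 of day 2 out of the difference, 17 of 18 were lower (*Utf1* was at 0.17), with a median of -0.88 beside -0.31 over all factors. None of the 34 passed the test over the 7 libraries (0 of 34, 0% of the table, at an adjusted p under 0.05), and 8 had an unadjusted p under 0.05, all lower at day 2. With the replicate block, 9 of 34 factors (26.5%) passed. *Nr0b1*, *Klf4*, *Tbx3*, *Esrrb*, *Zfp42*, *Fbxo15*, *Tdgf1* and *Pecam1* fell (8 of 34, 23.5%), and *Gbx2* rose (1 of 34, 2.94%). Of the 18 pluripotency factors, 14 were lower at day 2 in all 3 pairs of libraries, beside 15 of 34 factors (44.1%) in the whole table. The count rested on all 3 pairs: with the block it was 2 without replicate 1 (*Klf4* and *Tbx3*), 0 without replicate 2 and 0 without replicate 4. It also rested on the scaling, since centring each library on its own median of the 34 factors left 0 lower and 2 higher calls (*Gbx2* and *Wnt5b*) with the block; 18 of the 34 factors are pluripotency genes, and this centring takes a shift that most of them share out of the values.

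**Figure D1:**
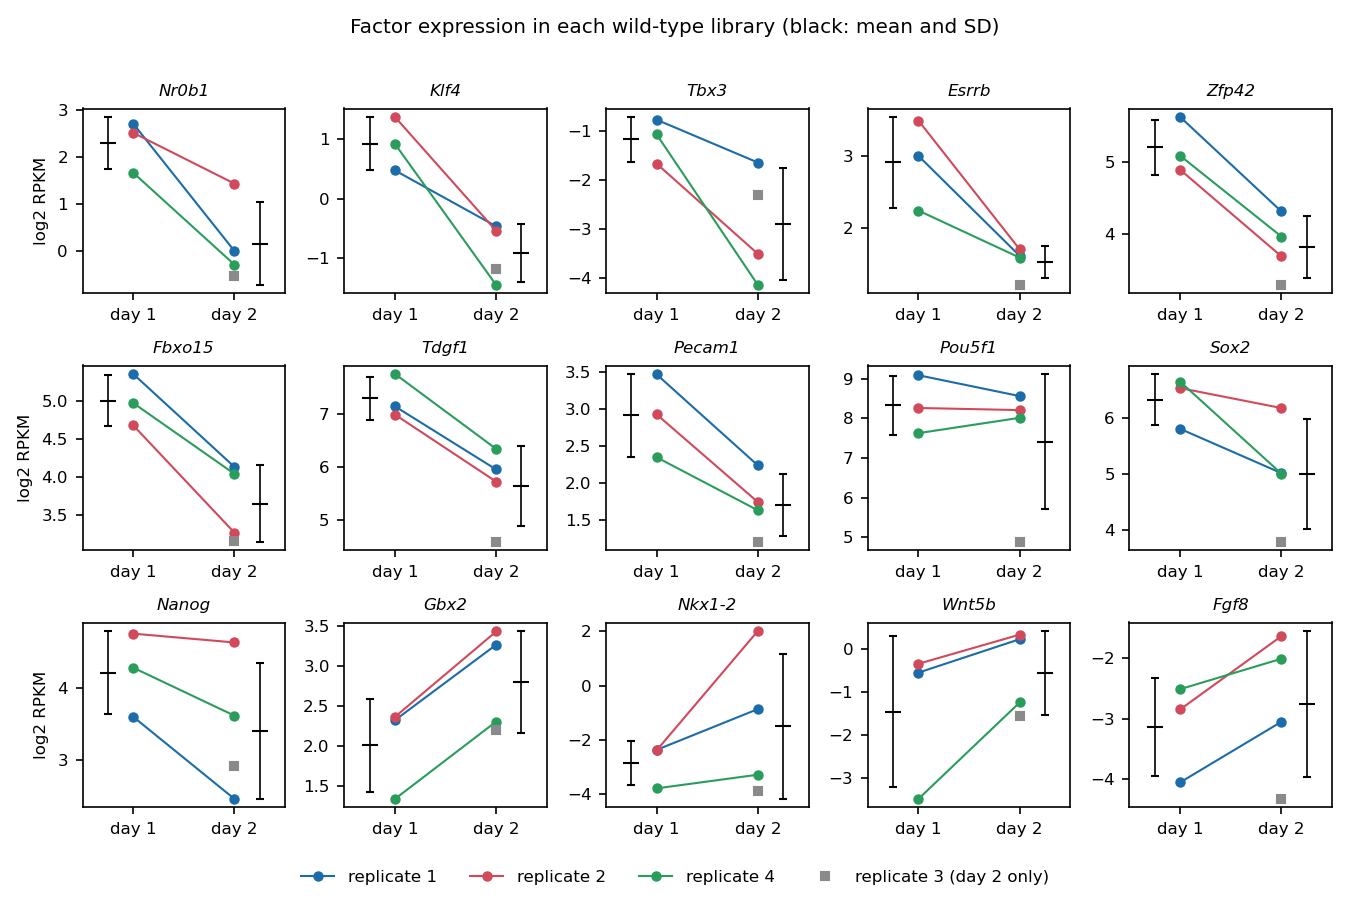
Log2 RPKM of 15 factors in each wild-type library at day 1 and day 2, with lines joining libraries of the same replicate number, a grey square for replicate 3 of day 2, and black bars for the mean and SD of each day. *Nr0b1*, *Klf4*, *Esrrb*, *Zfp42*, *Fbxo15*, *Tdgf1* and *Pecam1* were lower in every day 2 library than in every day 1 library, and *Gbx2* was higher at day 2 within each of the 3 pairs.

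The 250 bases upstream of the annotated start are shown for 3 naive factors that fell and for *Gbx2*, chosen after values were seen. These genes moved within every pair. *Esrrb* and *Tdgf1* did so too, and their windows, which held no match, are not shown. The windows are RefSeq sequences on GRCm38.p6, and 6 of the 9 factors called with the block were searched. No window was matched for *Tbx3* and *Pecam1*, and none was looked up for *Fbxo15*. *Klf4* lies at chr4:55532476-55532725 (minus strand), *Nr0b1* at chrX:86191525-86191774 (plus strand), *Zfp42* at chr8:43307010-43307259 (minus strand) and *Gbx2* at chr1:89931177-89931426 (minus strand). Capitals mark matches, on either strand, to the octamer ATGCAAAT bound by POU factors, the nuclear receptor half-site AAGGTCA, the CACCC box CCACACCC bound by Krüppel-like factors, and the TATA box TATAAA.
Klf4: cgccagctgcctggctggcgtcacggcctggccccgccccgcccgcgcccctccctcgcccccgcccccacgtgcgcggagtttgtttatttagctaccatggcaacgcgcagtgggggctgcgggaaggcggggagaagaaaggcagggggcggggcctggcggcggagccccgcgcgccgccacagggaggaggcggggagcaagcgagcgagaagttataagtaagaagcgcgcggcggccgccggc
Nr0b1: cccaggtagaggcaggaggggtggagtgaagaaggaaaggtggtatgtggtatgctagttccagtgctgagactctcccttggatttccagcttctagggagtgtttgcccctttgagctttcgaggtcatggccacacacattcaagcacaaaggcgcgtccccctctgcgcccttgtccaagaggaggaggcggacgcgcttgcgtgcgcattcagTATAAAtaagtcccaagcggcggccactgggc
Zfp42: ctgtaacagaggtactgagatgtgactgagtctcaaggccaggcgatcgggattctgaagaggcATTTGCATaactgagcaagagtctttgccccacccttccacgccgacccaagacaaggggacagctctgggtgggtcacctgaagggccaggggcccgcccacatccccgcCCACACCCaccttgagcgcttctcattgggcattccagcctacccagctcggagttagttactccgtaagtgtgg
Gbx2: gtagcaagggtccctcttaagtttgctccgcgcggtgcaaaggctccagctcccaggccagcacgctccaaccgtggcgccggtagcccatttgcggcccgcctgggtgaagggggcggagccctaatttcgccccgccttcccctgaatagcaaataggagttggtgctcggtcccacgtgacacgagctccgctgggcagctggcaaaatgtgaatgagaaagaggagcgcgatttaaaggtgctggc

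*Zfp42* held an octamer and a CACCC box, and *Nr0b1* held a TATA box. Of the 6 windows, 1 held the octamer, 1 the CACCC box, 1 the TATA box and 0 the half-site. Over all 32851 upstream windows of the same length, 1.60% held the octamer, 4.08% the half-site, 3.20% the CACCC box and 12.4% the TATA box. A match describes the letters of the window and is no evidence of binding.

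Among the 10 naive factors, all had a lower mean at day 2 with a median difference of -1.36, and 7 were lower in every day 2 library than in every day 1 library, beside 9 of 34 factors (26.5%) in the whole table. Of these 10, 6 passed the test with the block, all of them lower at day 2, beside 8 of 34 factors (23.5%) called lower in the whole table.

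*Nr0b1* (chromosome X:86191764-86195947), an orphan nuclear receptor of the naive network, had the largest difference over the 7 libraries, while with the block *Nkx1-2* (2.13) and *Tbx3* (-1.93) were slightly larger in size than its -1.92. Its level was 2.72, 2.52 and 1.68 log2 RPKM in the day 1 libraries (replicates 1, 2 and 4) and 0.01, 1.44, -0.51 and -0.28 in the day 2 libraries (replicates 1, 2, 3 and 4). The groups did not overlap, and replicate 2 of day 2 came closest to day 1. Day 1 libraries averaged 2.31 ± 0.56 (SD, n = 3) and day 2 libraries 0.17 ± 0.88 (SD, n = 4), a difference of -2.14 (SE 0.62, adjusted p = 0.0927 from limma). With the replicate block the difference was -1.92 (95% confidence interval -2.88 to -0.95, adjusted p = 0.0388 from limma), a 3.77-fold fall. The values came from 132, 50 and 22 reads at day 1 and 56, 68, 17 and 4 at day 2.

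*Klf4* (chromosome 4:55527143-55532466), a Krüppel-like factor and reprogramming factor, was at 0.48, 1.37 and 0.92 log2 RPKM at day 1 and at -0.46, -0.54, -1.18 and -1.45 at day 2. No day 2 library reached the level of a day 1 library. The difference was -1.83 (SE 0.53, adjusted p = 0.0927 from limma), and -1.74 with the block (95% confidence interval -2.65 to -0.83, adjusted p = 0.0388), a 3.34-fold fall. The values of *Klf4* came from 47, 38 and 22 reads at day 1 and 68, 29, 18 and 3 at day 2. Within replicates 1, 2 and 4 it differed by -0.94, -1.91 and -2.37, so that the largest fall rested on the library with 3 reads. *Tbx3* (chromosome 5:119670669-119684724), a T-box factor of the naive network, was at -0.77, -1.67 and -1.07 log2 RPKM at day 1 and at -1.65, -3.52, -2.30 and -4.15 at day 2. It was lower in all 3 pairs, although replicate 1 of day 2 lay within the day 1 range. Its difference was -1.73 (SE 0.67, adjusted p = 0.128), and -1.93 with the block (adjusted p = 0.0396), a 3.82-fold fall that rested on 1 read in replicate 4 of day 2, against 12 in replicate 4 of day 1.

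*Esrrb* (chromosome 12:86361117-86521628), an estrogen-related receptor, was at 3.00, 3.49 and 2.24 log2 RPKM at day 1 and at 1.62, 1.71, 1.21 and 1.59 at day 2. *Zfp42* (chromosome 8:43295063-43306980), the zinc finger gene also known as *Rex1*, was at 5.63, 4.89 and 5.09 at day 1 and at 4.31, 3.69, 3.29 and 3.97 at day 2. *Fbxo15*, an F-box gene used as a reporter of pluripotency, was at 5.36, 4.68 and 4.98 at day 1 and at 4.14, 3.27, 3.17 and 4.04 at day 2. In each of the 3 genes the groups did not overlap, and replicate 3 of day 2 was the lowest library. The differences over the 7 libraries were -1.38, -1.39 and -1.35 (SE 0.52, 0.51 and 0.52), each with an adjusted p of 0.128. With the block they were -1.27, -1.21 and -1.19, with adjusted p-values of 0.0431, 0.0388 and 0.0396.

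The other 4 naive factors passed neither fit. *Tfcp2l1* was at 1.29, 1.68 and 1.57 log2 RPKM at day 1 and at 0.42, 0.69, 0.53 and 1.12 at day 2, and *Dppa3* (*Stella*) was at 5.67, 5.45 and 5.62 at day 1 and at 5.30, 4.32, 3.77 and 5.28 at day 2. Neither gene overlapped between the days, with differences of -0.83 (SE 0.49, adjusted p = 0.383) and -0.91 (SE 0.56, adjusted p = 0.383), and adjusted p = 0.0830 and 0.153 with the block. The Krüppel-like factors *Klf2* and *Klf5* overlapped between the days. *Klf2* was at 4.21, 3.21 and 2.36 log2 RPKM at day 1 and at 3.08, 1.97, 1.88 and 2.21 at day 2, a difference of -0.97 (SE 0.60, adjusted p = 0.383, and 0.101 with the block). *Klf5* was at 1.94, 3.38 and 3.71 at day 1 and at 1.97, 2.50, 1.95 and 2.28 at day 2, a difference of -0.83 (SE 0.57, adjusted p = 0.433, and 0.153 with the block), and it was the naive factor that did not decrease in replicate 1.

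The 3 core factors were not called in either fit. *Pou5f1* (*Oct4*, chromosome 17:35506018-35510772) was at 9.09, 8.26 and 7.63 log2 RPKM at day 1 and at 8.56, 8.21, 4.88 and 8.01 at day 2. Its mean difference of -0.91 (SE 0.87, adjusted p = 0.541) was -0.064 without replicate 3 of day 2, and -0.06 with the block (95% confidence interval -0.83 to 0.70, adjusted p = 0.870). *Sox2* (chromosome 3:34650405-34652461) was at 5.80, 6.52 and 6.64 at day 1 and at 5.01, 6.17, 3.78 and 5.001 at day 2, lower in all 3 pairs. Its difference was -1.33 (SE 0.63, adjusted p = 0.224), and -0.93 with the block (adjusted p = 0.0844). *Nanog* (chromosome 6:122707489-122714633) was at 3.60, 4.77 and 4.29 at day 1 and at 2.46, 4.64, 2.91 and 3.62 at day 2, also lower in all 3 pairs. Its difference was -0.81 (SE 0.64, adjusted p = 0.485), and -0.65 with the block (adjusted p = 0.153).

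Of the 5 other pluripotency factors, 1 passed with the block, lower at day 2, beside 8 of 34 factors (23.5%) called lower in the whole table. *Tdgf1* (*Cripto*), a co-receptor of the Nodal ligand, was at 7.14, 6.98 and 7.75 log2 RPKM at day 1 and at 5.95, 5.72, 4.59 and 6.34 at day 2. The groups did not overlap, the difference was -1.64 (SE 0.57, adjusted p = 0.128), and with the block it was -1.29 (95% confidence interval -1.95 to -0.62, adjusted p = 0.0388), a 2.44-fold fall. *Foxd3*, a forkhead factor needed in the epiblast, was at 2.51, 1.94 and -1.15 at day 1 and at 0.97, 1.72, -2.64 and -2.79 at day 2. The libraries of each day ranged more widely than the days differed (-1.79, SE 1.25, adjusted p = 0.433), and replicate 4 of day 2 had 0 reads on it. The remaining *Utf1*, *Sall4* and *Gdf3* had differences of -0.23, -0.45 and -0.57, with adjusted p-values from 0.608 to 0.822, and of 0.17, -0.19 and -0.31 with the block, so that *Utf1* turned direction. *Pecam1*, an adhesion molecule of the mESC surface outside these lists, was at 3.47, 2.93 and 2.35 log2 RPKM at day 1 and at 2.24, 1.75, 1.21 and 1.64 at day 2. Its groups did not overlap, and its difference was -1.21 (SE 0.53, adjusted p = 0.189), or -1.04 with the block (adjusted p = 0.0431).

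**Figure D2:**
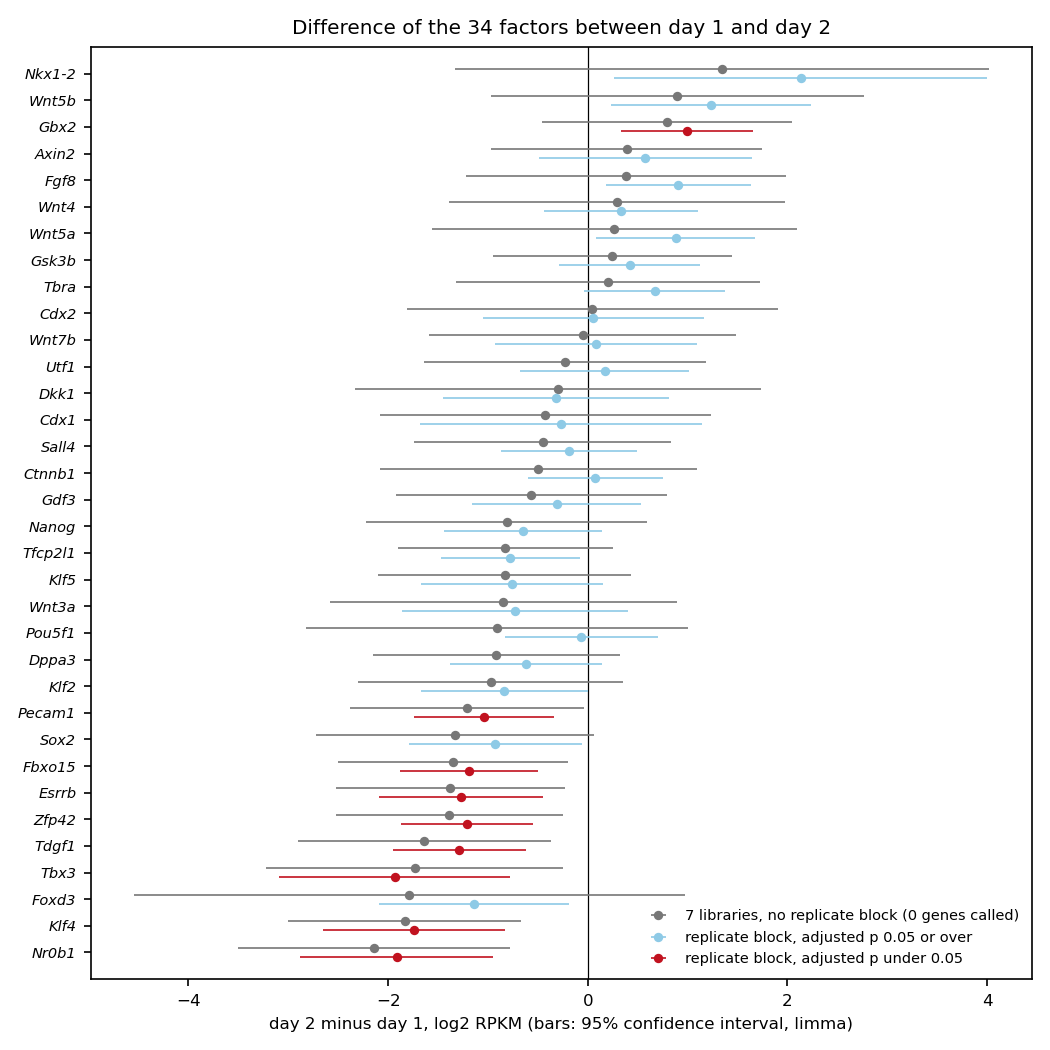
Difference in log2 RPKM between day 2 and day 1 for the 34 factors, with 95% confidence intervals from limma over the 7 libraries (grey) and with the replicate block (red where the adjusted p was under 0.05, light blue otherwise). The intervals are narrower with the block, and of its 9 calls 8 lie below 0 and 1, *Gbx2*, above.

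The factor with a significant rise in the blocked fit was *Gbx2* (chromosome 1:89927956-89931179), a homeobox gene of the early neural plate that is also expressed in mESCs. It was at 2.33, 2.37 and 1.34 log2 RPKM at day 1 and at 3.27, 3.44, 2.20 and 2.31 at day 2. The days overlapped, since both day 2 libraries at the lower end lay below the higher day 1 libraries, yet each pair rose. The difference was 0.79 (SE 0.57, adjusted p = 0.433), and 0.99 with the block (95% confidence interval 0.34 to 1.65, adjusted p = 0.0431), a 1.99-fold rise. This rise followed a lower mean at day 1 than at day 0, and the day 2 mean was still below that of day 0. Wild-type means were 3.42, 2.01, 2.80 and 4.39 log2 RPKM at days 0, 1, 2 and 2.5.

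Of the 8 streak and posterior factors, 0 passed in either fit. An unadjusted p under 0.05 was found for 0 of 8 over the 7 libraries and for 3 of 8 with the block (*Nkx1-2*, *Wnt5b* and *Fgf8*, each with the higher level at day 2). Their median difference was 0.29 beside -0.69 over all factors, and 0.62 beside -0.31 with the block. In all 3 pairs 4 of 8 were higher, beside 7 of 34 (20.6%) in the whole table. Of the 4, *T*, *Nkx1-2* and *Fgf8* had 0 reads in replicate 4 on both days, as did *Wnt5a* among the 7. The rise of 0.50 of these genes in that pair is that of a gene without reads, whose value is higher at lower depth. It enters their differences with the block and the median of 0.62. *Nkx1-2*, a homeobox gene of the caudal epiblast, had the largest mean rise in the table. It was at -2.37, -2.39 and -3.79 log2 RPKM at day 1 and at -0.87, 2.01, -3.87 and -3.28 at day 2. The difference was 1.35 (SE 1.21, adjusted p = 0.541, and 0.0830 with the block), and 0.18 without replicate 2 of day 2, which held 182 reads against 55, 3 and 0 in replicates 1, 3 and 4. *Wnt5b*, a non-canonical Wnt ligand, was at -0.56, -0.35 and -3.49 at day 1 and at 0.22, 0.33, -1.57 and -1.25 at day 2. Its difference was 0.90 (SE 0.84, adjusted p = 0.541, and 0.0751 with the block), and replicate 4 of day 1 had 0 reads on it.

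*Axin2*, a direct target and feedback inhibitor of the canonical Wnt pathway, was at 1.23, -0.27 and -0.93 log2 RPKM at day 1 and at 0.75, 0.50, -0.16 and 0.51 at day 2, a difference of 0.39 (SE 0.61, adjusted p = 0.764). *Fgf8*, a ligand of the streak and tailbud, was at -4.06, -2.85 and -2.51 at day 1 and at -3.05, -1.64, -4.33 and -2.01 at day 2. These *Fgf8* values stood for 0 reads in all 3 day 1 libraries and for 5, 6, 0 and 0 reads at day 2, and the difference was 0.38 (SE 0.73, adjusted p = 0.798), or 0.91 with the block (95% confidence interval 0.18 to 1.63, adjusted p = 0.0751). *T* itself had 3, 3 and 0 reads at day 1 and 17, 12, 2 and 0 at day 2, with a difference of 0.20 (SE 0.69, adjusted p = 0.822), or 0.67 with the block (adjusted p = 0.113). *Cdx2* and *Cdx1*, regulators of trunk *Hox* genes, had differences of 0.04 and -0.43 (adjusted p = 0.959 and 0.791), and *Wnt3a* had no more than 1 read in any library.

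The other Wnt pathway genes of the table, the ligands *Wnt4*, *Wnt5a* and *Wnt7b*, the inhibitor *Dkk1*, *Ctnnb1* and the kinase *Gsk3b*, had differences between -0.49 (*Ctnnb1*) and 0.30 (*Wnt4*), and 0 of 6 passed in either fit. With the block *Ctnnb1* differed by 0.08 (95% confidence interval -0.60 to 0.76). No gene of the fixed lists of formative epiblast and endoderm or trophoblast markers was among the 34 factors, so that other cell types were not assessed beyond *Gbx2* and the streak genes. In bulk RNA, fewer cells of a type and less RNA per cell cannot be told apart.

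**Figure D3:**
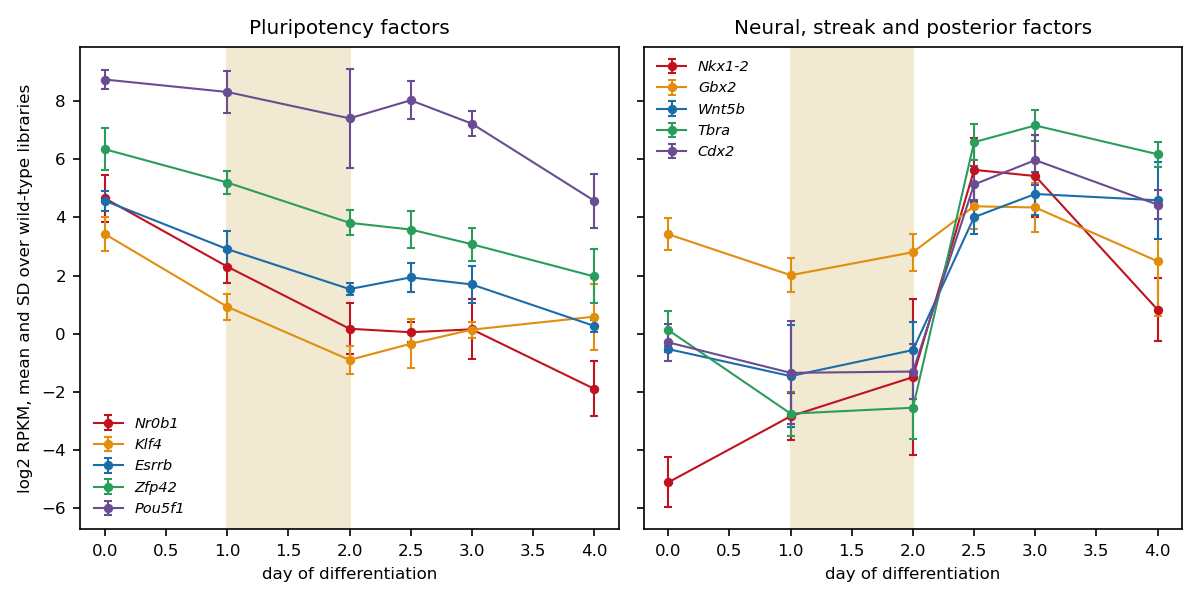
Mean log2 RPKM and SD of wild-type libraries (n = 3 at day 1, n = 4 on the other days) by day of differentiation, for 5 pluripotency factors (left) and 5 neural, streak and posterior factors (right), with the step from day 1 to day 2 shaded. *Tbra* is *T*, at -2.56 on day 2 and 6.60 at day 2.5.

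Set in the time course, 9 of the 10 naive factors had lower means at day 1 than at day 0 as well as at day 2 than at day 1, the exception being *Dppa3*, which was 0.35 higher at day 1 than at day 0. Over days 0, 1, 2 and 2.5, *Nr0b1* averaged 4.66, 2.31, 0.17 and 0.05 log2 RPKM, *Klf4* averaged 3.43, 0.92, -0.91 and -0.35, and *Zfp42* averaged 6.35, 5.20, 3.82 and 3.58. The means of adjacent steps share their middle libraries and were not tested against each other. Over the same days *T* averaged 0.12, -2.76, -2.56 and 6.60 log2 RPKM, *Cdx2* -0.30, -1.35, -1.31 and 5.14, and *Nkx1-2* -5.13, -2.85, -1.50 and 5.64, with the widest interval between means from day 2 to day 2.5 in each of the 3 genes.

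*Hox* genes were close to the limit of detection on both days. In the *Hox* table the log2 RPKM of a gene without reads depends on library depth. The reads of each gene were set so that all its values that could be judged (376 in the table) were whole within 0.05 of a read. The 39 genes together held 74, 22 and 37 reads at day 1 and 203, 192, 201 and 9 at day 2. Replicate 4 of day 2 had reads on 2 of 39 genes and an implied depth of 0.346 M reads in this table, 7.76 times lower than the 2.69 M reads in the factor table. Its depth differed between the tables, while that of the day 1 libraries and of replicate 3 of day 2 did not. Replicates 1 and 2 of day 2 had too few factors without reads for this comparison. All 39 genes had their highest day 2 value in replicate 4 of day 2. Results are therefore given with and without it.

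**Figure D4:**
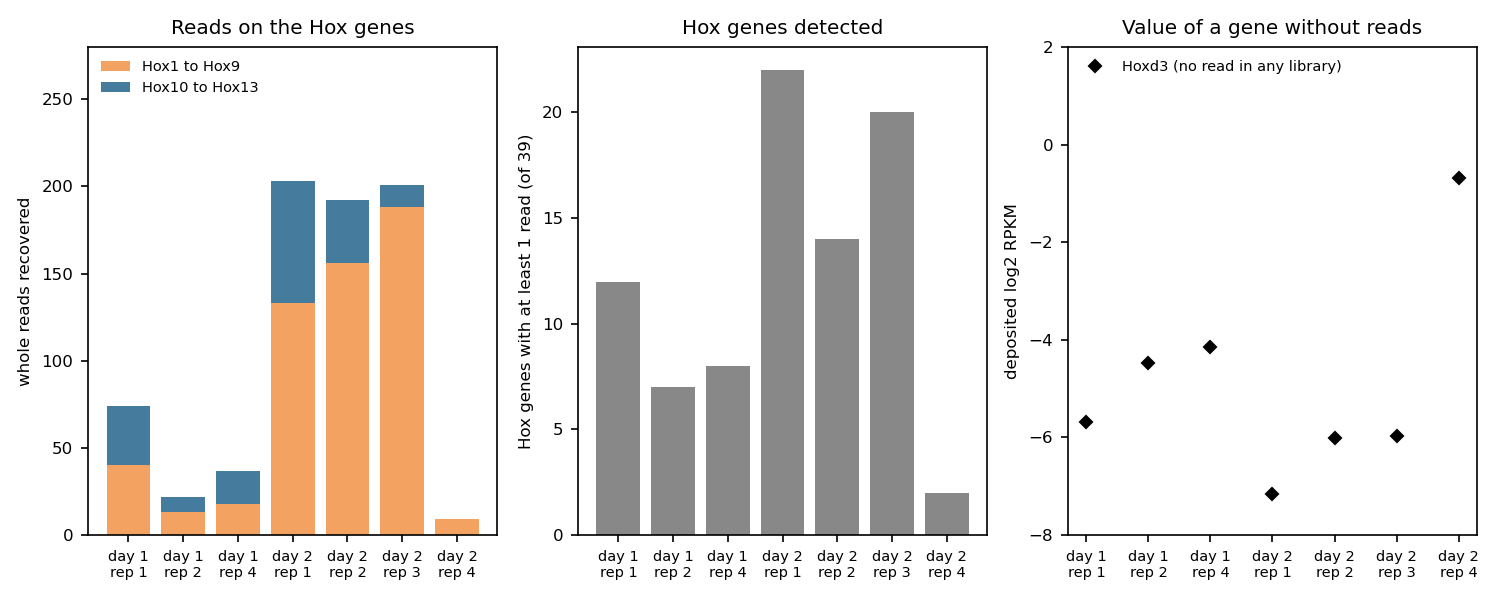
Reads on the 39 *Hox* genes recovered from the deposited values (left), number of *Hox* genes with at least 1 read (middle), and deposited log2 RPKM of *Hoxd3*, which had no read in any of the 7 libraries (right). *Hoxd3* nevertheless ranged from -7.16 to -0.69 log2 RPKM, and replicate 4 of day 2 had 9 reads in all.

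No *Hox* gene passed the test over the 7 libraries (0 of 39, 0%; 0 with an unadjusted p under 0.05), with the replicate block, or without replicate 4 of day 2 (0 of 39; 22 with an unadjusted p under 0.05). Of these 22 genes, 12 had no read in any of the 6 libraries. Without replicate 4, a gene with no read anywhere differed by -1.60, and with it by -0.18. Of the 39 genes, 12 had no read in any library, 8 had reads at day 2 only, and 0 had reads at day 1 only.

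On the scale log2(RPKM + 1), 1 of 39 *Hox* genes passed with replicate 4 of day 2, higher at day 2, and 0 passed without it. Relative to the no-read value of each library, an alternative added after the data were seen, 2 genes passed without replicate 4, both higher at day 2. One of them was *Hoxa3*, with a difference of 3.09 (adjusted p = 0.0393). It had 0 reads in the 3 day 1 libraries and 5, 6, 15 and 1 at day 2. This scale rises with depth, and the day 2 libraries without replicate 4 had 13.4 to 30.7 M reads against 3.81 to 11.1 M reads at day 1.

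Among the *Hox* genes with the highest day 2 levels were *Hoxd13*, *Hoxd1*, *Hoxa5*, *Hoxb2* and *Hoxa2*. *Hoxd13* (chromosome 2:74668310-74671599), the last gene of the D cluster and one of the posterior *Hox* genes, held 23, 8 and 12 reads at day 1 and 57, 30, 5 and 0 at day 2. Its level was -0.26, -0.58 and 0.34 log2 RPKM at day 1 and -0.42, -0.19, -2.74 and 0.07 at day 2, where the last value stands for 0 reads. Its difference was -0.66 (SE 1.59, adjusted p = 0.954), or -0.95 without replicate 4 (adjusted p = 0.315).

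*Hoxd1* had 0, 2 and 4 reads at day 1 and 14, 7, 6 and 0 at day 2, at -4.52, -2.16 and -0.83 log2 RPKM and at -2.03, -1.88, -2.06 and 0.48. *Hoxa5* had 1, 0 and 0 reads and then 2, 1, 15 and 0, at -4.38, -3.33 and -2.99 and at -4.85, -4.70, -0.75 and 0.47. In both genes the highest value belonged to the library with 0 reads on them. *Hoxb2* had 6, 0 and 0 reads at day 1 and 4, 8, 6 and 0 at day 2, at -2.69, -4.22 and -3.88 log2 RPKM and at -4.74, -2.59, -2.96 and -0.42. *Hoxa2* had 0, 1 and 0 reads and then 1, 5, 4 and 0, at -4.45, -3.09 and -2.91 and at -5.77, -2.30, -2.57 and 0.55. Their 4 differences without replicate 4 were 0.51, 0.13, 0.16 and -0.06, with adjusted p-values between 0.608 and 0.937. For 33 of 39 genes no library held 10 reads, and differences in such genes were not detectable at this depth.

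The same step was set beside that of *Smchd1* maternal null cells (genotype Smchd1[del/+], *Smchd1* deleted in the oocyte by Zp3-Cre), sampled in 4 libraries at each day. The difference between the genotypes' steps passed for 0 of 34 factors (0%) and 0 of 39 *Hox* genes (0%), with 0 unadjusted p-values under 0.05 in either table. In replicate 4 of maternal null day 1, 10 factors, *Pou5f1* and *Ctnnb1* among them, lay over 5 log2 units below every other library of that group. With that library kept, 13 of 18 pluripotency factors had a lower mean at day 2 in the maternal null, with a median difference of -0.70. Without it the values were 17 of 18 and -0.82. In the wild type they were 18 of 18 and -1.15 over the 7 libraries. With the replicate block, which leaves replicate 3 of day 2 out of the wild-type difference, they were 17 of 18 and -0.88. Without replicate 4 of maternal null day 1, 0 of 34 factors differed between the genotypes (smallest adjusted p = 0.972 from limma). For the 9 factors called with the block the difference of the steps was then between -0.18 and 1.03, with 95% confidence intervals reaching from -1.74 to 3.16, a range that includes differences as large as the step itself.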

How the data were processed

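Polyadenylated RNA of each library was sequenced, and the authors trimmed the reads with Trim Galore 0.4.4, aligned them to GRCm38.p6 with HISAT2 2.0.5 and quantified them in SeqMonk. They deposited log2 RPKM values for 34 factors and 39 *Hox* genes, normalized to library size and transcript length. Libraries were made with a stranded or a non-stranded kit, which is not given per sample in the sources used here, so that overlapping antisense transcripts cannot be told apart. A table of raw counts was not used here because its time course headers are unreliable.

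Values were mapped to samples by column titles, and day 1 (n = 3) and day 2 (n = 4) were compared with limma 3.58.1 in R 4.3.3 on the log2 values as deposited, with no filter and no added pseudocount, two-sided, with Benjamini-Hochberg adjustment within each table at 0.05. A difference between genotypes was tested as an interaction over 15 libraries. Same-numbered libraries of days 1 and 2 shared a labelled line, and their deviations from the day means over the 34 factors correlated (Pearson's r = 0.69, 0.57 and 0.69 for replicates 1, 2 and 4), whereas over the *Hox* genes the values were 0.10, -0.23 and -0.02. The replicate number was therefore also fitted as a block.

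Whole reads were recovered from the step between the values of genes with few reads, counting a gene without reads as 0.9 reads and allowing 0.05 of a read. A gene was solved only where all its values that could be judged came out whole. The 683 such values of the 2 tables are therefore whole by construction and are no check of the method. Reads are given for 18 of the 34 factors. Depths use GENCODE exon lengths, since the authors' lengths are not given in the sources used here, so that they hold relative to each other only. The lowest depth that could be derived from the factor table was 2.69 M reads (M for 1000000), and depth limited the precision of genes with few reads. Alternatives were log2(RPKM + 1), log2(RPKM + 0.1), filters on low values, other centring, each library left out, line 1 alone, all wild-type days in one fit and a mean-variance trend.

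Named genes were the core and naive factors, the 5 largest rises and falls, genes past the threshold, and the 6 *Hox* genes with the highest day 2 means without replicate 4. *Pecam1*, *Hoxa3*, the motifs and the upstream sequences shown were added after values were seen, and any other gene of the tables could be named by range or count. One *Hox* gene of this rule is not reported here. The groups, gene lists and tests were chosen with earlier results of these data known. Plots were drawn with matplotlib 3.10.9.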

Additional observations from a re-analysis of the deposited data

Results flagged for a closer look

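Among the 27 named genes, 2 had a day 2 library far from the other 3 by Dixon's test at the 95% level, which chance would flag in about 1 of 20 groups. *Pou5f1* was at 4.88 log2 RPKM in replicate 3 of day 2, against 8.01 to 8.56 in the other 3 libraries, and in the same library *Ctnnb1* was at 4.63 and *Sox2* at 3.78, the lowest of the day 2 libraries in both cases. *Gsk3b*, at 2.02, and the naive factor *Tbx3*, at -2.30, were closer to the rest of their group in that library. *Hoxd1* was at 0.48 log2 RPKM in replicate 4 of day 2, where it had 0 reads. In the whole *Hox* table there were 8 of 39 genes that had replicate 4 of day 2 as such an outlier.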

How the results depend on the processing

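The 34 factors gave 0 calls over the 7 libraries, 6 with log2(RPKM + 1), 0 with log2(RPKM + 0.1), 1 among the 21 with a mean log2 RPKM above 0, 0 with median-centred libraries, 0 in line 1 alone, 3 with all wild-type days in one fit, 4 with a mean-variance trend, 0 relative to *Ctnnb1* and *Gsk3b*, and 0 to 1 with each library left out (1, *Nr0b1*, without replicate 2 of day 2); every one of these calls was lower at day 2 and among the 9 called with the block. Without replicates 3 and 4 of day 2 there was 1 call, *Nkx1-2*, higher at day 2. With the replicate block there were 9 calls, and the block with log2(RPKM + 1) gave 9, with log2(RPKM + 0.1) 10 and with median-centred libraries 2, while leaving out a replicate gave 0 to 2 calls. The 39 *Hox* genes gave 0 calls, 1 with log2(RPKM + 1) and 1 with the block on that scale, 2 relative to the no-read value without replicate 4 of day 2, and 0 to 21 with the block and a replicate left out, where the 21 arose without replicate 4 and 20 of them were lower. The interaction with genotype gave 0 calls in both tables under every alternative, the block included, and the block changed no *Hox* call over all libraries. The fits that combine the block with another choice, the fits without 2 libraries and the scale relative to *Ctnnb1* and *Gsk3b* were chosen after seeing the data. Of 622 alternative values of the named genes, 19 had the opposite sign, and 0 of these 19 passed the threshold. *Pou5f1* was at 0.17 with the block without replicate 1, at 0.059 without replicates 3 and 4 of day 2 and at 0.54 with the block and median-centred libraries, and *Foxd3* at 0.24 without replicates 3 and 4 of day 2. With each library left out in turn, *Fgf8* ranged from -0.076 (without replicate 1 of day 1) to 0.91, *Wnt5b* from -0.11 and *Axin2* from -0.081 (both without replicate 4 of day 1) to 1.45 and 1.00, and *Hoxa2* from -0.062 (without replicate 4 of day 2) to 2.04; *Axin2* was at -0.12 in line 1 alone. *Hoxd13* was at 0.053 and 0.11 with the block without replicates 1 and 4 and at 0.65 relative to the no-read value without replicate 4 of day 2, and *Hoxd1* at -0.0082 with log2(RPKM + 1) without that library. Without replicate 4 and with the block, *Hoxa5*, *Hoxb2* and *Hoxa2* were at -0.92, -0.21 and -0.26; without replicates 3 and 4 of day 2 they were at -1.21, -0.071 and -0.55. The cause of these changes was not tested. Precision is limited by depth, since 33 of 39 *Hox* genes had under 10 reads in every library, and by 3 pairs of libraries.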

Other observations

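Replicate 4 of day 2 carried 0.346 M reads (M for 1000000) on the implied scale of the *Hox* table and 2.69 M reads in the factor table. The day 1 libraries and replicate 3 of day 2 gave the same depth in both, and replicates 1 and 2 of day 2 could not be compared. In the factor table replicate 4 of day 2, the only library of line 2 at day 2, held a median of 1.35 log2 RPKM over the 34 factors, against 0.87 to 1.73 in the line 1 libraries. The share of *Hox* reads on *Hox10* to *Hox13* genes was carried by *Hoxd13* in most libraries: 23 of 34 reads in replicate 1, 8 of 9 in replicate 2 and 12 of 19 in replicate 4 of day 1, and 57 of 70, 30 of 36 and 5 of 13 in replicates 1, 2 and 3 of day 2. Per 1000000 reads of implied depth, *Hoxd13* held 2.08, 1.66 and 3.15 reads at day 1 and 1.85, 2.17, 0.373 and 0 at day 2.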
